A study of Rattus norvegicus with 6 samples.

Results

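Cytochrome P450s (Cyp genes), glutathione transferases (Gst), UDP-glucuronosyltransferases (Ugt) and sulfotransferases (Sult) were followed in isolated rat pancreatic islets, the endocrine cell clusters of the pancreas. Members were all genes whose array probe carries a RefSeq transcript with a rat symbol beginning in Cyp, Gst, Ugt or Sult. Cyp51, a cholesterol synthesis gene, was left out by that rule. This gave 111 genes, from 114 probes, of 13903 genes named on the array. They comprised 62 Cyp, 21 Gst, 17 Ugt and 11 Sult genes. The adult group was islets of 3 male rats, 1 rat per array. The P10 group was islets of 3 pools of rats of postnatal day 10, 1 pool per array. All islets had been released with collagenase and carry no treatment or transgene by the labels. The labels do not state the adults' age, the strain, how many rats made up a pool or whether P10 pools were male, so an effect of sex and of stage cannot be told apart.

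These enzymes are best known from liver and intestine. Cytochrome P450s, sitting in the endoplasmic reticulum or in mitochondria, insert oxygen into drugs, fatty acids, steroids, bile acids, retinoids and vitamin D, using electrons passed on by partner proteins. The conjugating enzymes then attach a soluble group to such products: glutathione (Gst), glucuronic acid (Ugt) or sulfate (Sult), from activated donors made by other enzymes. Nuclear receptors and other sensors of foreign compounds control many of these genes, and transporters carry the conjugates out of the cell.

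Each array had 24684 probes, of which 17829 to 18731 were well above background and 0 were saturated. Levels are log2 signals relative to the array's 75th percentile, so that a difference of 1 equals a 2-fold change, and changes are adult minus P10. Adult arrays 2 and 3, and P10 arrays 1 and 2, differed by little more than the noise between spots of 1 probe, with a variance of 1.36 and 1.25 times that noise. The other P10 pairs lay at 1.71 and 2.22 times, and adult array 1 at 26.3 and 21.7 times from arrays 2 and 3. Each close pair was therefore counted as 1 sample, which leaves n = 2 per stage for standard errors (SE) and p-values, unless a setting that leaves out arrays is named. Slide 1 alone and the setting without adult array 1 each leave 1 counted adult sample, and leaving out P10 array 3 or P10 arrays 1 and 2 leaves 1 counted P10 sample. The lone sample is then assumed to vary like the other stage. By the scan times and array positions in the file headers, adult arrays 2 and 3 lay on a slide of their own, and the other 4 arrays shared another, called slide 1 here. Over all probes tested, the median change was -0.23, and it was -0.02 after quantile normalization.

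The islet label was checked first. All 7 measured beta cell markers were well above background on all 6 arrays, among them Ins1 and Ins2 of insulin; 4 were higher in adults, 1 was lower and 2 did not pass. Markers of other cells moved with stage as well. Of enterocyte (absorptive gut cell) markers 14 of 14 tested were lower in adults, and the summed signal of the list was 7.79 to 8.70 on adult arrays and 346 to 368 on P10 arrays. On no adult array were Apoa4, Ms4a10 and Treh of that list well above background. Of hepatocyte markers 6 were higher, 7 lower and 2 did not pass, with sums of 18.8 to 22.8 in adults and 30.1 to 32.3 at P10. Ahsg and Itih1 of the hepatocyte list were well above background on no array, and Tat on no adult array. Acinar markers were lower in 13 of 15 cases and not passed in 2, while with quantile normalization 6 were lower and 1 was higher. Macrophage markers were higher in 9 of 9. Duct markers gave 1 higher, 4 lower and 2 not passed, mesenchymal markers 1 higher and 3 lower, adrenal steroid cell markers 1 lower and 3 not passed, and endothelial markers 6 not passed. In such bulk RNA, fewer cells of a type and less RNA per cell cannot be told apart.

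Between adult and P10 islets, 15 member genes were higher in adults and 31 were lower, while 32 of the 78 tested did not pass (limma adjusted p under 0.05 over all probes). A test was made only for members whose signal was well above background throughout at least 1 stage. Each counted sample also had to keep a value after outlier spots were dropped. Together these rules left out 33 of the 111. Among all 11404 named genes tested, 23.7% were higher and 28.8% were lower, 52.4% in either direction. The members' called share, 46 of 78, was thus near that of genes at large. At a change of at least 2-fold, 12 members were higher and 20 lower, against 15.9% and 20.7% of named genes. The stages did not overlap over their arrays for 61 of the 78 members, and for 78.2% of named genes tested. The median change of the tested members was -0.22, against -0.13 for named genes.

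By enzyme class, 8 Cyp genes were higher, 11 lower and 20 not passed; 1 Gst was higher, 9 lower and 10 not passed; 3 Ugt genes were higher, 9 lower and 1 not passed; and 3 Sult genes were higher, 2 lower and 1 not passed. Because the 8 Ugt1 genes are read as 1 (below), the count of lower members is 24 when they count once. Another scaling shifted the split: each array's median in place of the 75th percentile gave 22 higher and 20 lower, and quantile normalization gave 21 higher and 30 lower. On slide 1 alone, with adult array 1 and all P10 arrays, 21 were higher and 41 lower, with the spread taken from P10 alone.

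**Figure D1:**
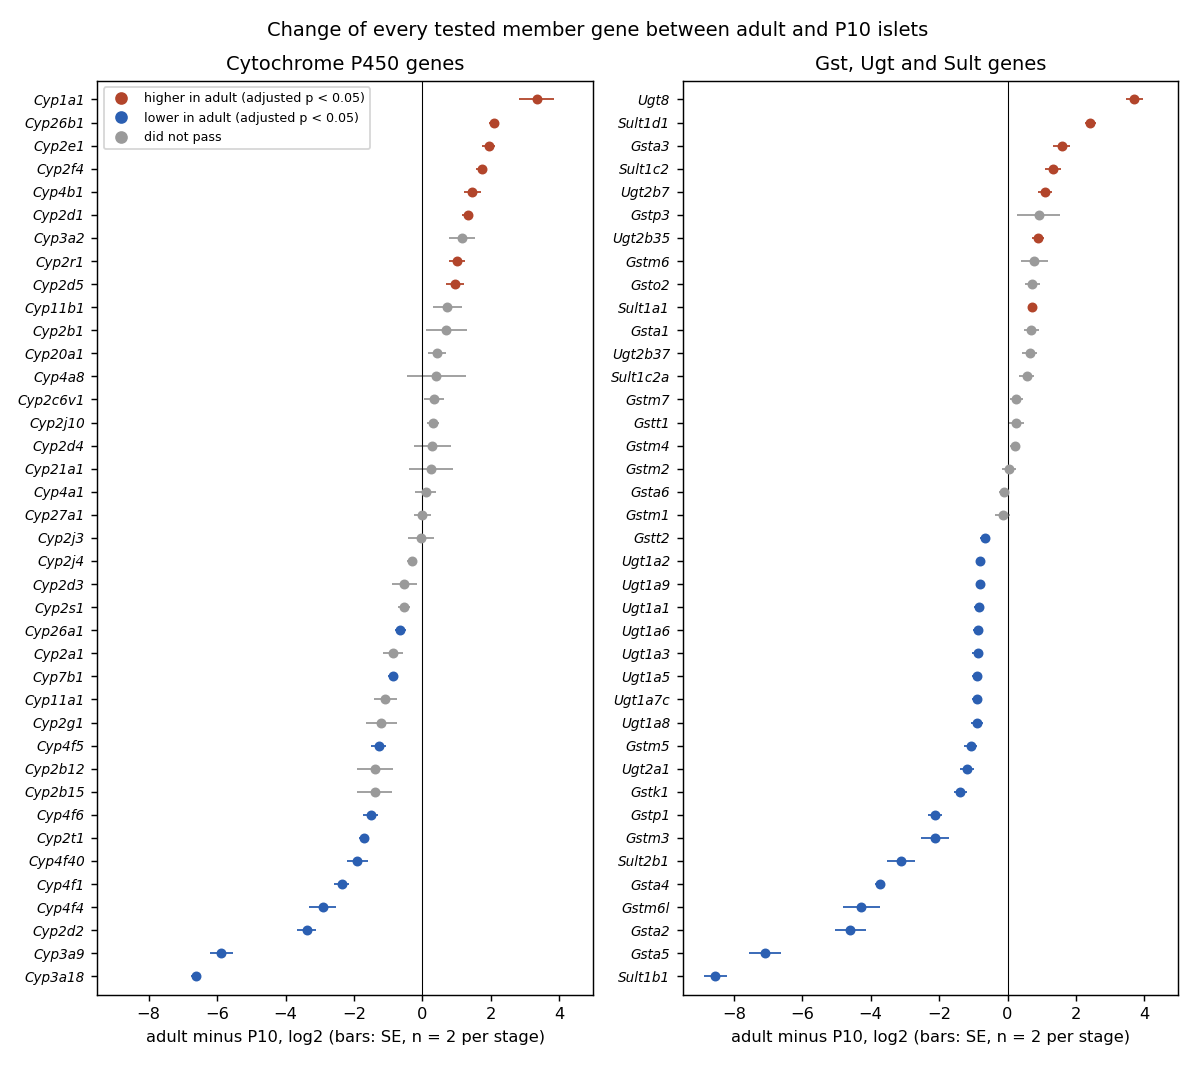
Each point is the change of 1 tested member gene, adult minus P10 in log2 (horizontal axis), with its standard error from limma (n = 2 counted samples per stage); Cyp genes are on the left and Gst, Ugt and Sult genes on the right. Changes run from 3.71 for Ugt8 to -8.55 for Sult1b1, with 9 members at least 8-fold lower and 2 at least 8-fold higher in adults.

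Of the Cyp1 family, whose genes respond to aryl hydrocarbons through the receptor AHR, only Cyp1a1 was bright enough to test, and it was higher in adults. Cyp1a1 stood at -3.81, -3.50 and -3.40 on adult arrays 1, 2 and 3, against -8.22, -7.09 and -6.29 on P10 arrays 1, 2 and 3. All adult arrays lay above all P10 arrays, of which 1 was well above background. The change was 3.34 (SE 0.52, limma adjusted p = 0.0114), and with another background correction (normexp) it was 0.88 and did not pass (adjusted p = 0.0699). Cyp1a2 and Cyp1b1 were well above background on no array.

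The Cyp2 family, broad oxidases of drugs and fatty acids, went both ways, with 5 of 19 tested members higher, 2 lower and 12 not passed. Cyp2e1, which oxidizes ethanol and other small molecules, stood at -2.26, -1.90 and -1.84 in adults and at -4.00, -3.92 and -4.04 at P10. The adult arrays were all higher, a change of 1.94 (SE 0.19, limma adjusted p = 0.00414), and a second probe of the gene gave 1.71. Cyp2f4, a P450 known from lung, was at -1.26, -1.01 and -0.98 in adults and at -2.78, -2.77 and -2.95 at P10. It too was higher without overlap, by 1.73 (SE 0.17, limma adjusted p = 0.00408). Its neighbour in the gene order, Cyp2t1, moved the other way. Cyp2t1 stood at 1.51, 1.40 and 1.52 in adults and at 3.16, 3.19 and 3.22 at P10, lower by -1.72 (SE 0.13, limma adjusted p = 0.00252).

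The Cyp2d genes, which lie side by side in the genome and include drug oxidases, were also split. In gene order Cyp2d4, Cyp2d5, Cyp2d1, Cyp2d3 and Cyp2d2 had changes of 0.29, 0.96, 1.33, -0.53 and -3.38, so the sign changed along the cluster. Cyp2d1 was at -2.49, -2.15 and -2.25 in adults and at -3.66, -3.59 and -3.73 at P10 (SE 0.17, limma adjusted p = 0.00706). Cyp2d2 was at -4.43, -3.40 and -4.06 in adults and at -0.65, -0.66 and -0.74 at P10 (SE 0.28, limma adjusted p = 0.00302). Both had no overlap between stages, and Cyp2d2 was 10.4-fold lower in adults. Cyp2d5 passed more narrowly (SE 0.27, limma adjusted p = 0.0472), with 2 of 3 P10 arrays well above background, and Cyp2d4 and Cyp2d3 did not pass. With normexp background Cyp2d5 turned to -0.30 without passing (adjusted p = 0.501), and Cyp2d1 did not pass at 0.75 (adjusted p = 0.0723). The probe sequences are not in the files used here, so signal shared between such close paralogs was not tested. The remaining higher member was Cyp2r1, which hydroxylates vitamin D in its first activation step, at 1.02 (SE 0.23, limma adjusted p = 0.0295), and 0.35 with normexp background, where it did not pass (adjusted p = 0.163). Cyp2e1 and Cyp2f4 were then the 2 Cyp2 genes still passing as higher.

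Among Cyp3 genes, the steroid and drug oxidases of liver and gut, Cyp3a18 and Cyp3a9 were far lower in adults. Cyp3a18 stood at -9.81, -9.78 and -9.54 in adults, where no array was well above background, and at -3.09, -3.16 and -3.09 at P10, where all 3 were. Adult levels were at least 30.7-fold lower (limma adjusted p = 0.00111). Folds written "at least" take, on each array without detection, the higher of the probe's own signal and the lowest well-measured signal. They hold for the processed signal, and with normexp background the changes of Cyp3a18 and Gsta5 were smaller, at -2.39 and -3.01, and both passed. Cyp3a9 was at -6.37, -5.14 and -5.91 in adults and at -0.09, -0.06 and -0.08 at P10, a gap of -5.87 (SE 0.33, limma adjusted p = 0.0017). Cyp3a2 stood at -4.72, -3.76 and -3.80 in adults and at -6.21, -4.90 and -5.27 at P10, and did not pass (1.16, limma adjusted p = 0.0657). Cyp3a23-3a1 was well above background on no array. The Cyp3a18 and Cyp3a9 falls moved with the enterocyte markers given above, on all 3 P10 arrays. The summed hepatocyte signal was higher at P10 too, though single hepatocyte markers went both ways, 6 higher and 7 lower in adults. The part of such cells in these falls was not tested.

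Cyp4 enzymes oxidize the end of fatty acid and eicosanoid chains. All 5 tested Cyp4f genes were lower in adults, while Cyp4b1 was higher. Cyp4f1, a leukotriene and fatty acid hydroxylase, stood at -0.75, -0.30 and -0.24 in adults and at 1.94, 1.81 and 1.81 at P10. The adult arrays were all lower, by -2.36 (SE 0.22, limma adjusted p = 0.00358). Cyp4f4 was at -7.51, -6.30 and -6.69 in adults and at -4.05, -3.99 and -4.15 at P10, a change of -2.92 (SE 0.39, limma adjusted p = 0.00787). Cyp4f40 changed by -1.90, Cyp4f6 by -1.51 and Cyp4f5 by -1.28, with limma adjusted p-values of 0.0128, 0.00902 and 0.0138. Cyp4f5, Cyp4f40 and Cyp4f4 lie in 1 run of genes, and Cyp4f1 and Cyp4f6 are neighbours. Cyp4b1 stood at -1.20, -1.59 and -1.68 in adults and at -3.20, -2.97 and -2.67 at P10, higher by 1.46 (SE 0.25, limma adjusted p = 0.0142). Cyp4a1 and Cyp4a8, fatty acid hydroxylases under control of the receptor PPAR alpha, overlapped between stages at changes of 0.10 and 0.41. With normexp background 2 of the 5 Cyp4f genes still passed, Cyp4f1 and Cyp4f6, while Cyp4f4, Cyp4f40 and Cyp4f5 did not, at -1.49, -1.29 and -0.92.

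None of the 3 tested steroid hormone P450s passed with the 75th percentile scaling. Cyp11a1, which starts steroid synthesis by cutting the cholesterol side chain, stood at -6.71, -6.11 and -6.18 in adults and at -5.57, -5.77 and -5.02 at P10 (-1.08, limma adjusted p = 0.0592). Cyp11b1, the last step to corticosterone, was at -3.80, -2.62 and -2.82 in adults and at -3.78, -3.90 and -4.15 at P10 (0.73, limma adjusted p = 0.21). Cyp21a1, which hydroxylates progesterone on the way to corticosteroids, was at -1.88, -0.09 and -0.14 in adults and at -1.13, -1.26 and -1.32 at P10. The P10 values of Cyp21a1 lay between adult array 1 and adult arrays 2 and 3, so the sign depended on which adult arrays were used. Whether the slide or the sample went with this cannot be told apart, since adult array 1 was the adult array on slide 1. The change of Cyp21a1 was 0.26 (limma adjusted p = 0.749), but -0.62 on slide 1 alone and 1.14 without adult array 1, each with 1 counted adult sample, so no direction is read from them. Cyp11b1 passed as higher with quantile normalization, at 1.04 (adjusted p = 0.0438), and with median scaling at 1.04 (adjusted p = 0.0486). Cyp11a1 stood at -1.36 on slide 1 alone (adjusted p = 0.0215, spread from P10 alone). Cyp11b2 and Cyp11b3 were well above background on no array.

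Of the bile acid and cholesterol P450s, Cyp7b1, an oxysterol hydroxylase of the alternative bile acid pathway, was lower in adults. It stood at -5.30, -5.45 and -5.13 in adults and at -4.52, -4.44 and -4.38 at P10, a change of -0.87 (SE 0.13, limma adjusted p = 0.0109). Cyp7b1 did not pass with quantile normalization (-0.37, limma adjusted p = 0.181) or median scaling (-0.56, limma adjusted p = 0.0678). With normexp background it did not pass either (-0.76, limma adjusted p = 0.116). Cyp27a1, a mitochondrial sterol hydroxylase, overlapped between stages at -0.90, -0.39 and -0.32 in adults and -0.61, -0.60 and -0.66 at P10 (0.01, limma adjusted p = 0.986). The liver genes Cyp7a1 and Cyp8b1, and Cyp24a1, which breaks down vitamin D, were well above background on no array.

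The 2 retinoid P450s, which clear retinoic acid, differed. Cyp26b1 stood at -0.60, -0.82 and -0.71 in adults and at -2.72, -2.80 and -2.82 at P10. It was higher in adults with a wide gap, by 2.10 (SE 0.14, limma adjusted p = 0.0021). Cyp26a1 was dim, at -6.92, -6.86 and -6.60 in adults and at -6.23, -5.93 and -6.29 at P10. Its change of -0.64 (SE 0.16, limma adjusted p = 0.0375) turned to 0.32 with quantile normalization (adjusted p = 0.169), so no direction is given for it. Cyp20a1, an orphan P450, did not pass at 0.44 (limma adjusted p = 0.234).

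**Figure D2:**
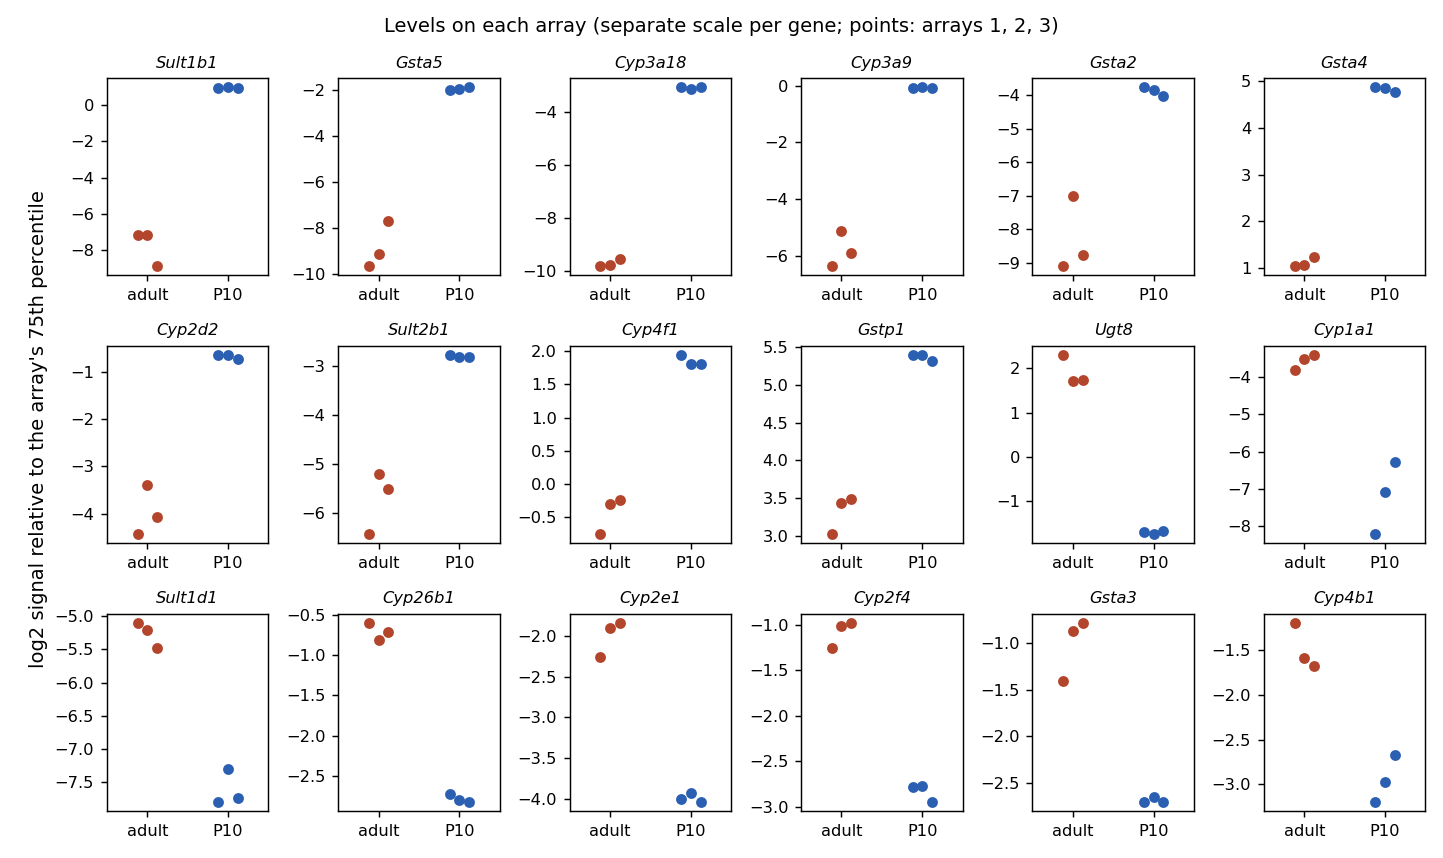
Log2 levels of 18 member genes on each array, adult arrays on the left and P10 arrays on the right of each panel, with a scale of its own per gene and points for arrays 1, 2 and 3 from left to right. The 18 genes were taken from the 46 members that passed, none of which overlapped between stages. The adult points therefore lie entirely above or below the P10 points by choice of genes, as for 78.2% of named genes tested. Sult1b1 spans the widest gap, from -8.88 to -7.17 in adults and 0.94 to 0.96 at P10.

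Alpha class glutathione transferases, which conjugate electrophiles and reduce lipid peroxides, held the steepest Gst changes, and the genome order split them. Gsta4, Gsta5 and Gsta2 are neighbours and were all lower in adults, whereas in the other run, Gsta3, Gsta1 and Gsta6, Gsta3 was higher and the others did not pass. Gsta4, whose enzyme favours the lipid peroxidation product hydroxynonenal, stood at 1.03, 1.06 and 1.23 in adults and at 4.87, 4.86 and 4.78 at P10. This was 13.3-fold lower in adults (-3.74, SE 0.14, limma adjusted p = 0.00132). Gsta5 was at -9.67, -9.12 and -7.70 in adults, with no array well above background, and at -2.02, -1.98 and -1.90 at P10. Adult levels of Gsta5 were at least 68.5-fold lower (limma adjusted p = 0.00206). Gsta2 was at -9.11, -7.01 and -8.78 in adults, with 1 array well above background, and at -3.76, -3.85 and -4.01 at P10. Its change was -4.60 (SE 0.46, limma adjusted p = 0.00427), and -1.74 with normexp background, where it did not pass (adjusted p = 0.0607).

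Gsta3, by contrast, stood at -1.40, -0.87 and -0.78 in adults and at -2.71, -2.66 and -2.71 at P10. All adult arrays were higher, by 1.58 (SE 0.24, limma adjusted p = 0.0112), and a second probe gave 0.93. Gsta1 was at 2.30, 1.81 and 1.93 in adults and at 1.32, 1.31 and 1.45 at P10, without overlap but short of the threshold (0.70, limma adjusted p = 0.0539). The summed signals of the enterocyte, hepatocyte, acinar, duct and mesenchymal markers were, like Gsta4, Gsta5 and Gsta2, higher on P10 arrays. Single hepatocyte markers went both ways, 6 higher and 7 lower in adults. The part of any of these cells in the Gsta4, Gsta5 and Gsta2 falls was not tested.

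Of the 8 mu class genes 3 were lower and 5 did not pass. Gstm6l stood at -9.21, -7.87 and -9.04 in adults, none well above background, and at -5.18, -5.17 and -3.93 at P10, at least 10.6-fold lower in adults (limma adjusted p = 0.00702). With normexp background Gstm6l did not pass (adjusted p = 0.0765). Gstm3 was at -6.98, -5.86 and -5.95 in adults and at -3.20, -5.42 and -4.33 at P10. The P10 arrays of Gstm3 differed widely among themselves, and without P10 array 1 its change of -2.12 (SE 0.41, limma adjusted p = 0.0187) was -1.57 and did not pass (adjusted p = 0.0866). Gstm5 changed by -1.07 (SE 0.19, limma adjusted p = 0.0155), its spot on adult array 2 being an outlier that was dropped. Gstm1, Gstm2, Gstm4, Gstm6 and Gstm7 had changes of -0.14 to 0.79. Gstm4 stood at 1.45, 1.47 and 1.53 in adults and at 1.24, 1.29 and 1.26 at P10 (0.21, limma adjusted p = 0.233).

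Gstp1, the pi class enzyme of many epithelia, was lower in adults. It stood at 3.02, 3.44 and 3.49 in adults and at 5.39, 5.39 and 5.31 at P10. This was 4.31-fold lower (-2.11, SE 0.20, limma adjusted p = 0.00403), while its neighbour Gstp3 overlapped between stages (0.91, limma adjusted p = 0.277). Gstk1, the mitochondrial and peroxisomal kappa class enzyme, was at 1.22, 1.54 and 1.62 in adults and at 2.83, 2.83 and 2.73 at P10 (-1.38, SE 0.18, limma adjusted p = 0.00809). Both were lower on all adult arrays. Gstt2 of the theta class changed by -0.67 (SE 0.14, limma adjusted p = 0.024), and Gstt1 did not pass at 0.25 (limma adjusted p = 0.387). Gsto2, the omega class enzyme that reduces dehydroascorbate, lay at 0.73 with a limma adjusted p of 0.0503, and passed with quantile normalization at 1.04 (adjusted p = 0.005).

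Glucuronosyltransferases of the Ugt1 group, whose best known substrate is bilirubin (Ugt1a1), were lower in adults as a block. In the GRCr8 annotation the 8 Ugt1 genes have 8 separate starts and 1 shared end, the alternative first exons being joined to common last exons. The 9 probes assigned to them spanned changes of only -0.89 to -0.79, with levels of 1.60 to 2.07 on adult arrays and 2.61 to 2.87 on P10 arrays. They therefore could not be told apart and are read as 1 measurement. Ugt1a7c as an example stood at 2.03, 1.83 and 1.89 in adults and at 2.87, 2.82 and 2.82 at P10, 1.85-fold lower (-0.89, SE 0.14, limma adjusted p = 0.012). The stages did not overlap for any of the 9 probes, and the adjusted p-values ran from 0.012 to 0.023. With each array's median as the scale, 0 of the 8 Ugt1 genes passed, with a median change of -0.57. Without P10 array 3, and without P10 arrays 1 and 2, 0 of 8 passed either, with median changes of -0.87 in both.

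**Figure D3:**
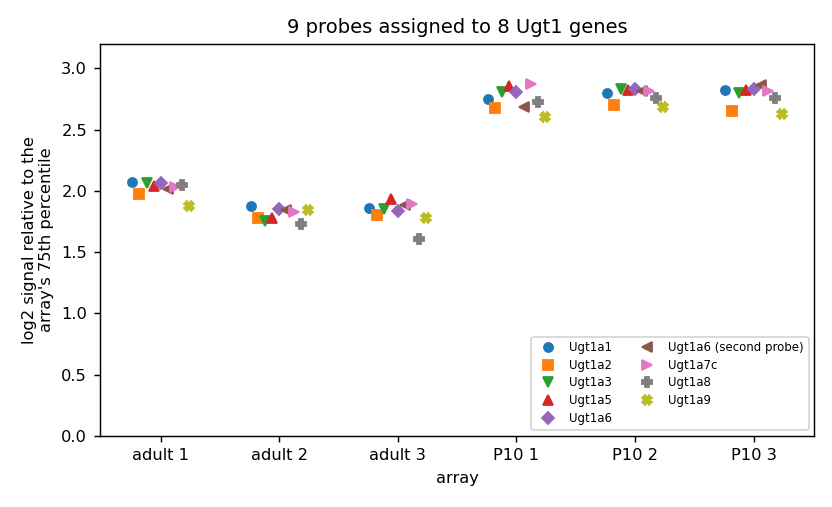
Log2 level (vertical axis, starting at 0) of the 9 probes assigned to 8 Ugt1 genes on each array, 1 marker per probe. On every adult array the probes lie between 1.60 and 2.07 and on every P10 array between 2.61 and 2.87, so that no probe stands apart.

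Ugt2 enzymes glucuronidate steroids, bile acids and odorants. Ugt2b35 and Ugt2b7, neighbours in the gene order, were higher in adults and Ugt2a1, of olfactory tissue, was lower. Ugt2b7 stood at -3.35, -3.85 and -3.80 in adults and at -4.72, -4.74 and -4.65 at P10 (1.10, SE 0.21, limma adjusted p = 0.0194). Ugt2b35 changed by 0.89 (SE 0.17, limma adjusted p = 0.0194), and Ugt2b37 beside it did not pass at 0.65 (limma adjusted p = 0.073). Ugt2a1 was at -3.88, -3.98 and -3.11 in adults and at -2.37, -2.37 and -2.67 at P10 (-1.19, SE 0.20, limma adjusted p = 0.0143). These changes were without overlap but small, and all 3 did not pass with normexp background, at 0.38, 0.66 and -1.03 for Ugt2b7, Ugt2b35 and Ugt2a1.

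Ugt8, which attaches galactose to ceramide and so makes the galactolipids of myelin, had the steepest rise of all members. It stood at 2.30, 1.71 and 1.74 in adults and at -1.70, -1.75 and -1.67 at P10. This was 13.1-fold higher in adults (3.71, SE 0.24, limma adjusted p = 0.00201). Its change ran from 3.43 to 4.01 over the 21 alternative settings in which it was measured. Of these, the slide as a block, slide 1 alone and leaving out adult arrays 2 and 3 are 1 contrast. Other members kept their direction over all 21 as well, among them Cyp26b1 (1.74 to 2.40) and Gsta4 (-3.81 to -3.44).

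Sulfotransferases of the Sult1 family act on phenols, catecholamines and thyroid hormones, and showed the steepest fall of all members beside a rise in an adjoining gene. Sult1b1, which sulfates thyroid hormone and phenols and is known from liver and gut, stood at -7.17, -7.17 and -8.88 in adults and at 0.94, 0.96 and 0.94 at P10. This is a change of -8.55 (SE 0.33, limma adjusted p = 0.00132), with 2 of 3 adult arrays well above background. Over the alternative settings its size varied, from -8.97 to -5.62. Sult1d1, next to it, which sulfates catecholamines in rodents, stood at -5.10, -5.20 and -5.47 in adults and at -7.80, -7.30 and -7.74 at P10, where no array was well above background. Adult levels of Sult1d1 were at least 3.74-fold higher (limma adjusted p = 0.00221). With normexp background Sult1d1 did not pass, at -0.031 (adjusted p = 0.930).

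Sult1c2 stood at -5.67, -5.49 and -5.69 in adults and at -6.33, -7.05 and -7.24 at P10, with no P10 array well above background, at least 2.50-fold higher (limma adjusted p = 0.0152). It turned to -0.35 with normexp background, without passing (adjusted p = 0.445). Sult1a1, the main phenol sulfotransferase, was at 0.51, 0.51 and 0.53 in adults and at -0.12, -0.25 and -0.23 at P10. The adult arrays were all higher, by 0.72 (SE 0.13, limma adjusted p = 0.0155). With normexp background Sult1a1 did not pass, at 0.62 (adjusted p = 0.0559), and 0 of 5 Sult1 genes passed as higher. Sult2b1, which sulfates cholesterol and is known from skin and other epithelia, was at -6.44, -5.22 and -5.51 in adults and at -2.77, -2.80 and -2.80 at P10. This was 8.63-fold lower in adults (-3.11, SE 0.41, limma adjusted p = 0.00766). The hydroxysteroid sulfotransferases Sult2a1, Sult2a2 and Sult2a6 were well above background on no array. The Sult1b1 fall, like the others, moved with the enterocyte markers, and most acinar, duct and mesenchymal markers were lower in adults too. Hepatocyte markers went both ways, 6 higher and 7 lower in adults, with a higher sum at P10. The part of any of these cells in the Sult1b1 fall was not tested.

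Promoter windows (250 bases before to 50 after the gene start, RefSeq, GRCr8) were available for 94 of the 111 members. Both strands were searched for 3 motifs given by their letters: GCGTG, the core bound by the aryl hydrocarbon receptor, TGACNNNGC, the core of the antioxidant response element, and GTTAAT, part of the site bound by HNF1. The first set of windows shows the adjoining paralogs Sult1d1 and Sult1b1, which changed in opposite directions with the processed signal. With normexp background the change of Sult1d1 was -0.031 and did not pass. Sult1d1 lies at chr14:20720829-20721128 and Sult1b1 at chr14:20771667-20771966, both on the plus strand, and neither window holds any of the 3 motifs. Their identity in a global alignment was 50.9%, and 47 pairs of members taken in alphabetical order gave a median of 47.5%.
Sult1d1: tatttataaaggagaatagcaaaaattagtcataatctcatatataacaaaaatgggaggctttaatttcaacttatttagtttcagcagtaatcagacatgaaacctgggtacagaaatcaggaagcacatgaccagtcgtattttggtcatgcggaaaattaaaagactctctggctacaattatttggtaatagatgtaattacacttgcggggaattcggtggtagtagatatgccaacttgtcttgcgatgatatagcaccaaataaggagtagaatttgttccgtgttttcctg
Sult1b1: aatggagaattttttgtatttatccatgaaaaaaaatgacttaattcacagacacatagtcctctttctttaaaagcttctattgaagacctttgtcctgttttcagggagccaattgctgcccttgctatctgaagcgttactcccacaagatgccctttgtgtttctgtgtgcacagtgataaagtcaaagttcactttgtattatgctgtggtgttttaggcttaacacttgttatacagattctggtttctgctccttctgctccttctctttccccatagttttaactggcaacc

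The second set shows windows of Gst and retinoid genes in which the antioxidant core was found, with all motif matches in capitals. Gsta2 (chr8:88077043-88077342, minus strand) and Gstp1 (chr1:210769656-210769955, minus strand) were lower in adults, and Cyp26b1 (chr4:118616127-118616426, minus strand) was higher. All 3 also hold GCGTG or its reverse complement CACGC, and in Gsta2 a GCGTG and a CACGC lie end to end.
Gsta2: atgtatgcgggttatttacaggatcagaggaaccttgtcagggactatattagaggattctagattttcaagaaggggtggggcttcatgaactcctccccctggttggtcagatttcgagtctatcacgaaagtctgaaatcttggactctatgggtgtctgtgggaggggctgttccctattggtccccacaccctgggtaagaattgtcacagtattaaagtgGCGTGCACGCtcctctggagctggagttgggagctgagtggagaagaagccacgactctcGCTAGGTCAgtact
Gstp1: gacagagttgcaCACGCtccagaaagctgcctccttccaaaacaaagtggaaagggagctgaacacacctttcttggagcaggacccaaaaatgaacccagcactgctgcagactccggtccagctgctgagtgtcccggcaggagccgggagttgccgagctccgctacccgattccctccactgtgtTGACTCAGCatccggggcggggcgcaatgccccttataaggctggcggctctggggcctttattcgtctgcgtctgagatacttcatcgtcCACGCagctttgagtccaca
Cyp26b1: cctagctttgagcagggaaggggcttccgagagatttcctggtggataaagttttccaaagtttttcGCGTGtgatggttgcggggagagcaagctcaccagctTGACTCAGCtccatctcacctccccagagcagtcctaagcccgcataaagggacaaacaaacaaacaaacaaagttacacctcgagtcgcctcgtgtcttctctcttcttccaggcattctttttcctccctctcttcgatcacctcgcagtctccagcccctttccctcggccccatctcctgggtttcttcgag

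The third set shows 2 of the separate starts of the Ugt1 group, at Ugt1a6 (chr9:96194768-96195067, plus strand) and Ugt1a1 (chr9:96248893-96249192, plus strand). Capitals mark GTTAAT or its reverse complement ATTAAC and, in Ugt1a6, GCGTG. Their identity was 48.3%, near that of the alphabetical pairs.
Ugt1a6: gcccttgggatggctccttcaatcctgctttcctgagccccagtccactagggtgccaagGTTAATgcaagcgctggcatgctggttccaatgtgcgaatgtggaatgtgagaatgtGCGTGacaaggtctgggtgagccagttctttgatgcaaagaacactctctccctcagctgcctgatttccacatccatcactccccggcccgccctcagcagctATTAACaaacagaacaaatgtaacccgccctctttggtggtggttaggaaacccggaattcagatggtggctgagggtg
Ugt1a1: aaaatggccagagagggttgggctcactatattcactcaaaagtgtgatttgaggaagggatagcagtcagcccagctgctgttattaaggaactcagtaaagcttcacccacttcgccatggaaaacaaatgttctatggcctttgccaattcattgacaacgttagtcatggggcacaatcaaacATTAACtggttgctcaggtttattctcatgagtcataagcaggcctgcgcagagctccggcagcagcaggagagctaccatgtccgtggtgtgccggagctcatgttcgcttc

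Over all matched members, GCGTG was found in 27.7% of windows, against 29.7% of the 33469 windows of the table. It was in 15 of 25 windows of members lower in adults (60.0%) and in 3 of 14 of those higher (21.4%). The lower members include the Ugt1 windows, 4 of 7 of which held it, and those of Cyp4f1, Cyp4f5, Cyp4f6 and Cyp4f40, which all held it. Runs of related genes thus weigh on the count. Cyp26a1, for which no direction is given above, held it too and was counted as lower. No window was available for Cyp1a1, and the share among all genes lower in adults was not computed. The median share of G and C was 50.3% in windows of lower members, 52.3% in those of higher members and 51.7% in the whole table. TGACNNNGC was in 10.6% of member windows and 12.1% of all, and in 6 of 18 Gst windows (33.3%). GTTAAT was in 14.9% of member windows and 7.5% of all, and in 4 of 7 Ugt1 windows. In 1 member window, matches of different motifs overlapped. These shares describe letters in a short window, and binding was not measured.

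Of 15 tested sensors and regulators of these enzyme genes 2 were higher in adults and 8 lower, beside 23.7% and 28.8% of named genes, with a median of -0.78 beside -0.13. The count of lower ones was 5 with median scaling, 4 with normexp background, and 3 both without P10 array 3 and without P10 arrays 1 and 2. Nr0b2, a repressor induced by bile acid signalling, stood at -3.14, -3.16 and -3.17 in adults and at 2.00, 1.97 and 2.06 at P10 (-5.17, SE 0.13, limma adjusted p = 0.00113). Nr1i2, the pregnane X receptor that controls Cyp3a genes, was at -5.52, -5.44 and -4.82 in adults and at -1.38, -1.41 and -1.48 at P10 (-3.89, SE 0.19, limma adjusted p = 0.00148). Hnf4a changed by -1.78 (SE 0.18, limma adjusted p = 0.00443). Higher were Rxra, which pairs with Nr1i2 and Nr1i3, by 3.53 (SE 0.47, limma adjusted p = 0.00817) and Nr1i3, the constitutive androstane receptor, by 1.76 (SE 0.31, limma adjusted p = 0.0152). Ahr, the receptor for which Cyp1a1 is the classical target, did not pass at -0.94 (limma adjusted p = 0.0581). The list held Star and Nr5a1 of steroid synthesis as well, and enterocytes also express Nr1i2 and Hnf4a. The part of such cells in the Nr1i2 and Hnf4a falls was not tested.

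The proteins that pass electrons to P450s gave 4 higher, 1 lower and 5 not passed of 10, with a median of 0.30. Among all named genes tested, 23.7% were higher and 28.8% lower. With normexp background 2 of these partners were higher and 0 lower. Por, the reductase of all microsomal P450s, stood at 3.04, 2.32 and 2.25 in adults and at 1.10, 1.21 and 1.36 at P10 (1.40, SE 0.31, limma adjusted p = 0.0259). Pgrmc1, a haem-binding partner, was at 4.77, 4.74 and 4.70 in adults and at 3.11, 3.17 and 3.14 at P10 (1.61, SE 0.13, limma adjusted p = 0.0028). The adult arrays were higher throughout for both. Cyb5a, cytochrome b5, was higher by 0.88 (SE 0.14, limma adjusted p = 0.0118), with its spot on adult array 2 dropped as an outlier. The mitochondrial ferredoxin gene Fdx2 was lower, at -0.68 (SE 0.13, limma adjusted p = 0.0175).

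**Figure D4:**
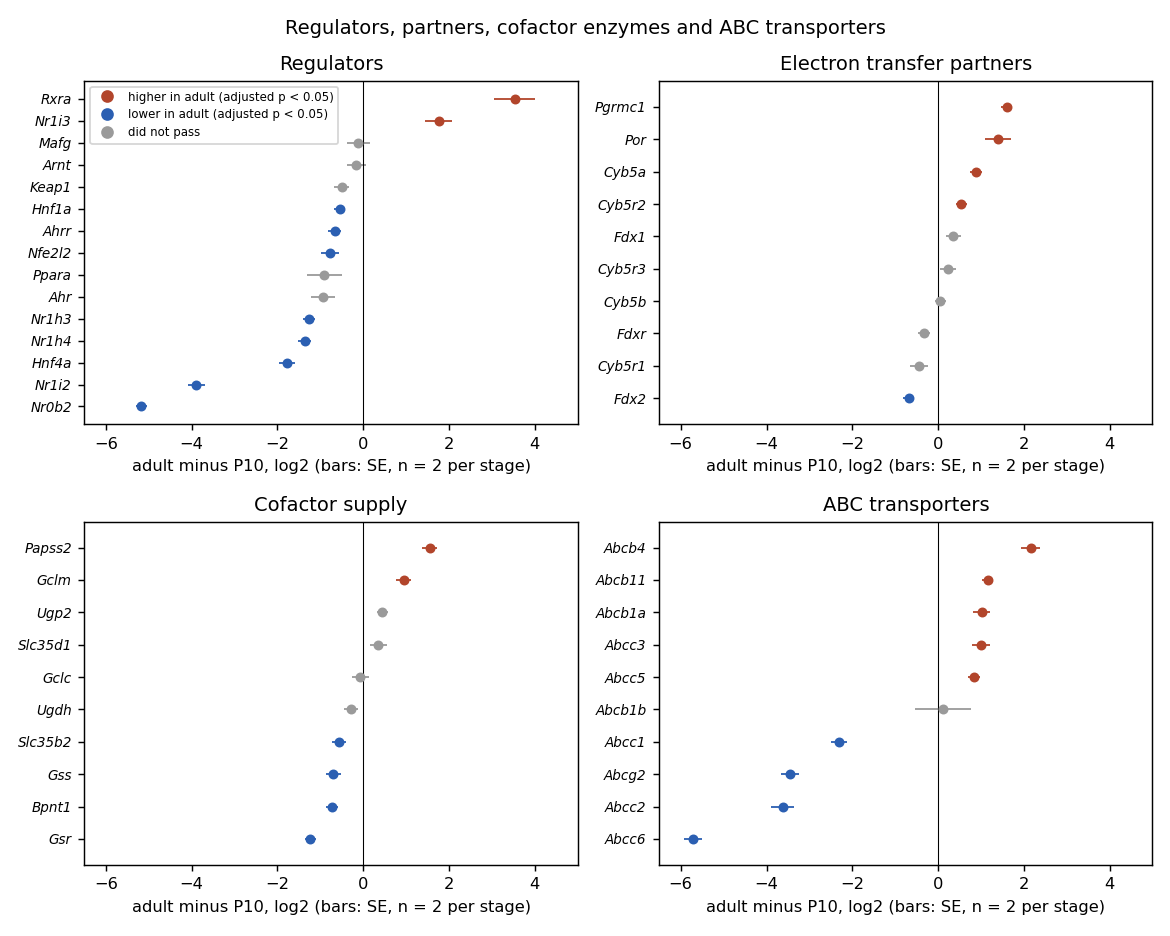
Change (adult minus P10, log2, with standard error, n = 2 counted samples per stage) of the tested genes of 4 lists: regulators, electron transfer partners, cofactor supply and, of the transporters, those of the ABC family. Nr0b2 at -5.17 and Abcc6 at -5.72 lie farthest to the left, and Rxra at 3.53 farthest to the right.

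Enzymes that supply the conjugation cofactors gave 2 higher, 4 lower and 4 not passed of 10, beside 23.7% and 28.8% of named genes. With normexp background 2 were higher and 2 lower. Papss2, which makes the sulfate donor PAPS, was at 3.93, 4.20 and 4.28 in adults and at 2.55, 2.60 and 2.48 at P10 (1.55, SE 0.17, limma adjusted p = 0.00532). Gclm of glutathione synthesis was higher by 0.94, while glutathione reductase (Gsr) was lower, at -1.24 (SE 0.13, limma adjusted p = 0.00478). Bpnt1, which clears the spent sulfate donor, changed by -0.72 and Gss, glutathione synthetase, by -0.70, with limma adjusted p-values of 0.0194 and 0.0378.

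Other oxidizing, reducing and hydrolysing enzymes of drug metabolism split evenly, 9 higher and 9 lower of 24 tested. The shares of named genes were 23.7% higher and 28.8% lower. With normexp background 6 of these enzymes were higher and 6 lower. Ces1d, a carboxylesterase with no P10 array well above background, was at least 23.2-fold higher in adults (limma adjusted p = 0.00132). Nqo1, a quinone reductase, was at 0.99, 1.46 and 1.43 in adults and at -1.86, -1.82 and -1.99 at P10 (3.14, SE 0.21, limma adjusted p = 0.00214), and Aldh3a1 changed by 3.23. Lower were Xdh, xanthine dehydrogenase, at -3.21, and the retinal dehydrogenases Aldh1a1 and Aldh1a3, at -1.74 and -1.66. Of 13 other conjugating enzymes 2 were higher (Bphl at 0.86 and Hpgds at 0.77) and 4 lower, beside the same shares of named genes. With normexp background 1 was higher and 4 lower. The microsomal glutathione transferase Mgst2 stood at -0.17, 0.20 and 0.18 in adults and at 4.40, 4.31 and 4.24 at P10 (-4.29, SE 0.19, limma adjusted p = 0.00135), with Gnmt at -2.86 and Tst at -2.34.

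Of 15 tested transporters 5 were higher and 6 lower, beside 23.7% and 28.8% of named genes. Abcc2, which exports glutathione and glucuronide conjugates, was at -5.97, -5.19 and -5.47 in adults and at -1.96, -1.97 and -2.08 at P10 (-3.62, SE 0.26, limma adjusted p = 0.00239). Abcc6 was lower as well, at -5.72. In the other direction Abcb4, a phospholipid exporter, was higher by 2.16, Abcb11, the bile salt exporter, by 1.16 and Abcb1a by 1.01. Abcc2 is also expressed in gut epithelium, whose markers were higher on the same P10 arrays. The part of such cells in the Abcc2 fall was not tested.

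Of the 33 members that were not tested, 23 were well above background on no array, 9 on some arrays of a stage, and 1 (Cyp4v3) had a dropped outlier spot. Among the 23 were Cyp1a2, Cyp7a1, Cyp8b1, Cyp24a1, Sult2a1 and Ugt2b1, known from liver or kidney. Their normalized signals had a median of -9.34 in adults and -8.59 at P10, and 22 of the 23 were lower in adults, with a median difference of -0.97. The signals of undetected probes thus stood lower on adult arrays after scaling. The changes of Cyp26a1, -0.64, and of the dim Cyp7b1, given above, were smaller than that difference.

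Directions were compared under other settings. Of the 46 members that passed, 44 passed in the same direction with quantile normalization and 26 with normexp background. The stages' arrays did not overlap for any of these 46, and for 78.2% of all named genes tested. Leaving out arrays could therefore not change a direction while the scaling stayed the same. On slide 1 alone, with 1 counted adult sample, the directions of all 46 were thus fixed in advance. Whether they passed is not read there, since the spread came from P10, whose arrays differed less than the adult arrays. Without P10 array 3, 22 of the 46 passed in the same direction, with 7 members higher and 15 lower in all, and without P10 arrays 1 and 2 it was 20. Without adult array 1 the directions were fixed in the same way, again with 1 counted adult sample and the spread taken from P10.

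**Figure D5:**
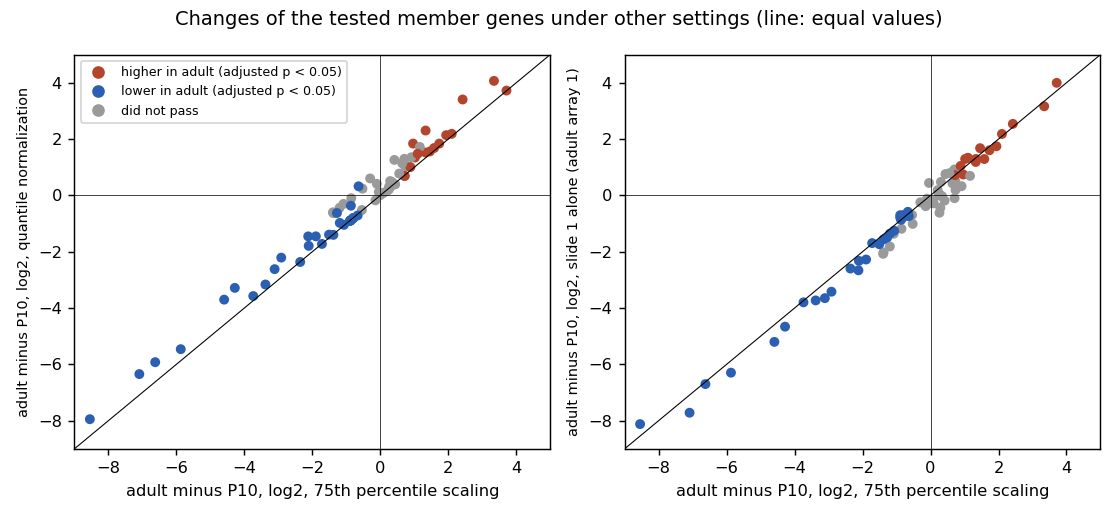
Changes of the tested members (adult minus P10, log2) with the 75th percentile scaling on the horizontal axis, against quantile normalization (left) and against slide 1 alone (right); the line marks equal values and colours the call. Most points lie near the line, with the left panel shifted upward for the dim members, such as Cyp26a1 at -0.64 against 0.32.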

How the data were processed

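Per the labels, Cy3-labelled islet RNA of 3 adult rats and 3 P10 pools was put on Agilent arrays of 1 colour, with a separate array for each sample. The deposited values are spot intensity readings. The submitters' processing notes name Agilent Feature Extraction, version 11.0.1.1, and per the file headers it had subtracted background and removed trends within an array, without scaling arrays to each other. Tables of log2 values normalized by the authors were deposited too (16038 probes, method not given in the sources used here), 98.8% of which lay within 0.05 of quantile-normalized processed signals, with column medians of 9.20 to 9.22.

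Spots flagged as outliers and control spots were left out, spots of a probe were averaged, and each array's 75th percentile of log2 signal was subtracted. Symbols came from RefSeq accessions (14294 of 24684 probes named), each gene entering with its brightest probe. Adult minus P10 was fitted with limma 3.58.1 (R 4.3.3) over 18362 probes, with Benjamini-Hochberg adjustment and a threshold of 0.05. The normexp alternative (offset 50) used median spot and background signals, since no mean signal column was in the files. Adult arrays 2 and 3 and P10 arrays 1 and 2 were averaged, and whether they carry separate RNA is not settled by the values. The script was tested on simulated data. Depth is not defined for arrays, and their number limits the precision.

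The members, gene lists and tests were chosen with earlier results of these data known. Named were, per enzyme group, up to 3 of the largest passing changes in each direction, the brightest member and all tested members with a steroid, bile acid or retinoid role, and from other lists at most 3 per direction; others named were chosen after their values were seen. Promoter windows were matched by symbol. The lists are electron transfer partners, regulators, cofactor supply, other phase I enzymes, other conjugating enzymes and transporters, and markers of beta cells, enterocytes, hepatocytes, acinar, duct, macrophage, adrenal steroid, mesenchymal and endothelial cells. A result on the transporter list is not reported here.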

Additional observations from a re-analysis of the deposited data

Results flagged for a closer look

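Cyp4v3, a member of the Cyp4 fatty acid hydroxylase family, was not tested because its spot on adult array 1 carried an outlier flag. With outlier spots kept, it stood at 0.76, 1.04 and 1.09 on adult arrays and at -1.56, -1.73 and -1.67 on P10 arrays, a signal outside the main comparison. The change was 2.57 (SE 0.17, limma adjusted p = 0.00199), higher on all adult arrays.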

How the results depend on the processing

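Members passing (15 higher and 31 lower) became 6 and 15 at an adjusted p under 0.01, 6 and 20 with normexp, 22 and 20 with median scaling, and 12 and 20 at 2-fold. With each array its own replicate and slide as a block they were 23 and 42. Leaving out 1 array gave 7 to 30 higher and 15 to 35 lower; leaving out P10 arrays 1 and 2 gave 7 and 13, and adult arrays 2 and 3, 21 and 41. Over all probes, 3909 higher and 5698 lower became 2044 and 2890 at 0.01, and 2126 and 2722 with normexp. Lower probes numbered 8932 with the slide block, 9057 with each array its own replicate as well, 8931 on slide 1 alone and 8599 without the detection filter. Leaving out 1 array gave 1582 to 5886 higher and 2563 to 7599 lower, leaving out P10 arrays 1 and 2 gave 1572 and 2353, and leaving out adult arrays 2 and 3 gave 8931 lower. The cause of these shifts was not tested.

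The slide block, slide 1 alone and leaving out adult arrays 2 and 3 are 1 contrast, adult array 1 against P10. Among named members, Cyp21a1 turned to -0.62 in it and to -0.64 with each array its own replicate and the slide block, where Cyp27a1 was -0.28. Cyp26a1 was 0.32 with quantile normalization and with the authors' values. Sult1c2 was -0.35 and Sult1d1 -0.031 with normexp. With that contrast counted once, 738 of 833 gene and setting combinations kept their side of the threshold, 61 lost the call and 27 gained it. The remaining 7 changed sign while passing in the main setting or in the other. Sign changes of genes passing in neither are counted among the 738, and Gstt1 reached -0.0046 in that way.

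Same-numbered arrays did not deviate together (r of -0.21, 0.08 and -0.24), so the numbers do not pair samples. With each array its own replicate and the replicate number as a block, 20 members were higher and 33 lower. Signals near background limit the dim members.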
